A study of Mus musculus with 6 samples.

Results

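The shPebp1 library holds polyadenylated RNA from mouse embryonic fibroblasts in which a short hairpin RNA (shRNA) against Pebp1, the gene of phosphatidylethanolamine-binding protein 1, had been introduced. It was compared with each of the 2 libraries labelled shLuc, made with a hairpin against luciferase, a gene that mice do not have. These are 3 of the 6 libraries of the series, and they were taken by their labels. All 3 came from fibroblasts of CBA/CaJ X C57BL/6J embryos on day 2 of reprogramming towards pluripotency, and all were grown in iCD1, a chemically defined medium, with ethanolamine (Etn) present. The other libraries (shEtnk1/2, shPcyt2 and shLuc in medium without Etn, called Etn-deprived here) blocked the CDP-ethanolamine pathway, which makes phosphatidylethanolamine, and their values are given where they help to place a gene. The series set out to learn whether Etn acts through Pebp1. A library that combined shPebp1 with Etn withdrawal was not analysed here. The labels do not say whether the libraries came from separate cultures, so p-values measure only the spread between these libraries, which may be technical. They describe transfected populations, and the share of cells that took up a hairpin is not given in the sources used here.

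Pebp1 encodes a small cytosolic protein, also known as Raf kinase inhibitor protein, that binds phosphatidylethanolamine and anionic lipids. It is best known for binding a Raf kinase and keeping it from phosphorylating MEK, which lowers signalling to ERK, and it has also been described as a brake on NF-kB signalling. In cancer cells its loss has been tied to SNAI1 and the epithelial-to-mesenchymal transition, and reprogramming of fibroblasts runs through the opposite transition early on.

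The libraries held 18484272 reads in genes for shPebp1, 20020465 for shLuc replicate 1 and 19535038 for the library labelled shLuc replicate 2. Levels are in RPKM, reads scaled to transcript length and to the reads of the library, and differences are on the log2(RPKM + 1) scale, which understates the change of genes with few reads. The test took in 11815 genes, those averaging 1 RPKM or more, after 125 short RNA rows had been left out. The fibroblast markers Col1a1, Col1a2, Col3a1, Thy1, Pdgfra, Dcn, Vim and Twist2 summed to 9931 RPKM in shLuc replicate 1, 9949 in the library labelled shLuc replicate 2 and 9258 in shPebp1. The reprogramming factor Pou5f1 stood at 619.8, 569.1 and 549.4 RPKM in the same order.

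The targeted gene was low in shPebp1 and equally low in 1 of the 2 controls. Pebp1 (mm10, chr5:117282651-117287564, minus strand) stood at 250.4 RPKM in shLuc replicate 1, 100.7 in the library labelled shLuc replicate 2 and 99.6 in shPebp1. It stood at 229.1 RPKM in shEtnk1/2, 263.4 in shPcyt2 and 210.5 in the Etn-deprived library. The level in shPebp1 thus lay below 4 libraries and within counting error of the library labelled shLuc replicate 2, whose Pebp1 goes against its label. It was 39.8% of shLuc replicate 1 (95% interval of counting error 37.9 to 41.8%) and 98.9% of the library labelled shLuc replicate 2 (93.3 to 104.9%). On the log2 scale the difference was -1.32 from the first and -0.02 from the second. Against the pair together it was -0.67 (SE 1.04), which limma did not call (Benjamini-Hochberg adjusted p = 0.985). Of the windows of 100 bases along the Pebp1 transcript, 23% also occur in the pseudogenes Gm10819 and Gm9824.

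The controls thus cannot be read as 2 measurements at 1 level of Pebp1. A gene that followed Pebp1 would lie near the library labelled shLuc replicate 2, and so would seldom be called or lie far beyond both controls. Where a list below holds no call, this says little about such genes. Each difference below is given first from shLuc replicate 1 and then from the library labelled shLuc replicate 2, and how that library came to be low in Pebp1 was not tested.

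**Figure D1:**
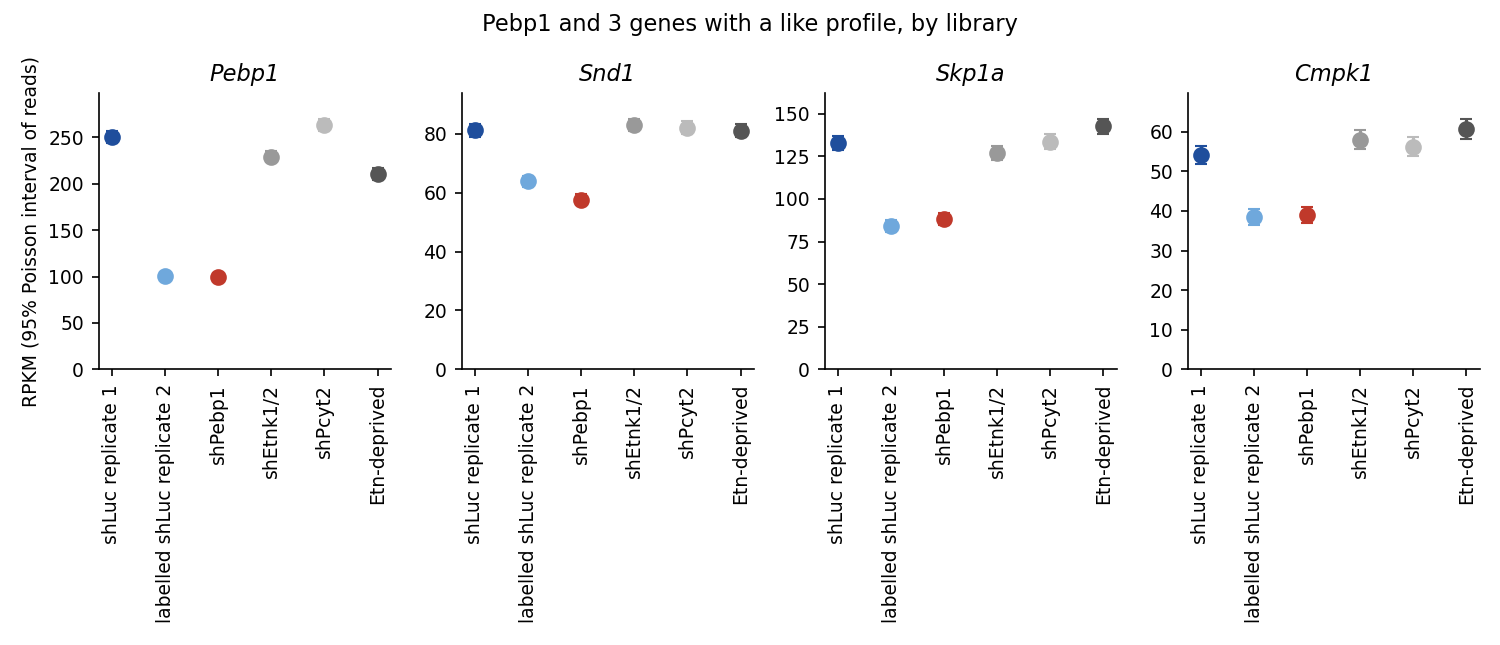
Level of Pebp1 and of 3 genes with a like profile (Snd1, Skp1a and Cmpk1, those of the 10 most alike with over 1000 reads on average) in RPKM in each of the 6 libraries. Points are single libraries and bars are 95% Poisson intervals of the reads. Pebp1 lies at 99.6 in shPebp1 and 100.7 in the library labelled shLuc replicate 2, and between 210.5 and 263.4 in the other libraries.

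Other genes shared the profile of Pebp1. Among 1727 genes whose lowest and highest library differed by at least 0.5 log2 units, the 10 nearest to it by Pearson correlation over the 6 libraries had r from 0.914 to 0.995 and included Skp1a, Cmpk1 and Snd1. With 6 libraries and so many genes to choose from, these values are a description. Skp1a, a subunit of SCF ubiquitin ligases, stood at 132.7 RPKM in shLuc replicate 1, 84.1 in the library labelled shLuc replicate 2 and 88.4 in shPebp1, against 127.1 to 142.5 in the other libraries. Cmpk1, the cytidine and uridine monophosphate kinase, stood at 54.1, 38.5 and 38.9 RPKM, against 56.2 to 60.7. Snd1, a nuclease with Tudor and staphylococcal nuclease domains, stood at 81.1, 63.8 and 57.6 RPKM, against 81.0 to 82.9. For all 3 genes the library labelled shLuc replicate 2 and shPebp1 lay below the other 4 libraries. None of these transcripts shared a window of 100 bases with another gene. The other 7 genes were C130083M11Rik, Pmaip1, Pstpip1, 1700120K04Rik, Cpa6, Rpl34 and Bmper, and 1 of the 10 lies on the chromosome of Pebp1.

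Across all genes the shPebp1 library differed from each control by about as much as the controls differed from each other. The standard deviation of the difference over the 11815 genes was 0.17 from shLuc replicate 1 and 0.16 from the library labelled shLuc replicate 2, and it was 0.16 between the controls. At least 0.5 log2 units above shLuc replicate 1 were 57 genes (0.482%), and 111 lay as far below it (0.939%). From the library labelled shLuc replicate 2 the counts were 61 (0.516%) and 83 (0.702%). Between the controls 68 genes were higher (0.576%) and 73 lower (0.618%) in the library labelled replicate 2. Beyond both controls at once lay 14 genes above (0.118%) and 30 below (0.254%). The last gene inside below was Islr (-0.51), and the first outside were Rtp4 above (0.49) and Dhrs3 below (-0.50). At 1 log2 unit no gene lay above both, and 2 lay below both (0.0169%), Ubb and the small RNA row DQ267100.

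**Figure D2:**
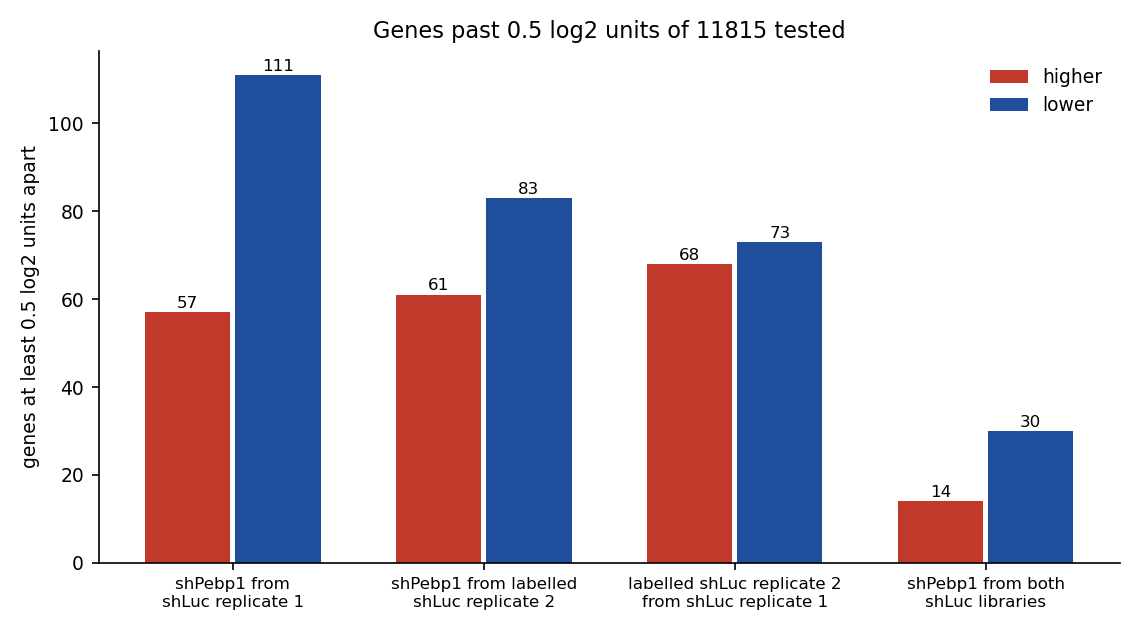
Number of genes at least 0.5 log2(RPKM + 1) units higher (red) or lower (blue), of 11815 tested. The bars count 57 and 111 genes for shPebp1 from shLuc replicate 1, 61 and 83 from the library labelled shLuc replicate 2, 68 and 73 between the controls, and 14 and 30 for shPebp1 beyond both controls.

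The limma test called 14 genes at an adjusted p under 0.05 (0.118%), 4 higher (0.0339%) and 10 lower (0.0846%) in shPebp1. Their adjusted p ran from 1.93e-12 to 0.0438. shPebp1 is 1 library, so the spread came from the shLuc libraries with 1 residual degree of freedom. shPebp1 was assumed to vary as they did. For most genes that spread was drawn far towards the spread over genes of like level (median prior 24.96 degrees of freedom). A call thus sets shPebp1 mainly against this common spread of the shLuc libraries, although these differ in Pebp1. It measures no variation among shPebp1 libraries. It serves here to pick out genes and is no replicated test of the knockdown. No call remained when either shLuc library was left out and the spread was taken from the pathway libraries. Those are 3 different treatments, so their spread also holds differences between treatments. The loss of a call there cannot tell these from noise. Ubb and Myl6 kept their call in most of the other settings (11 and 9 of 14 in all), and each of the other 12 genes kept it in 2 to 5.

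**Figure D3:**
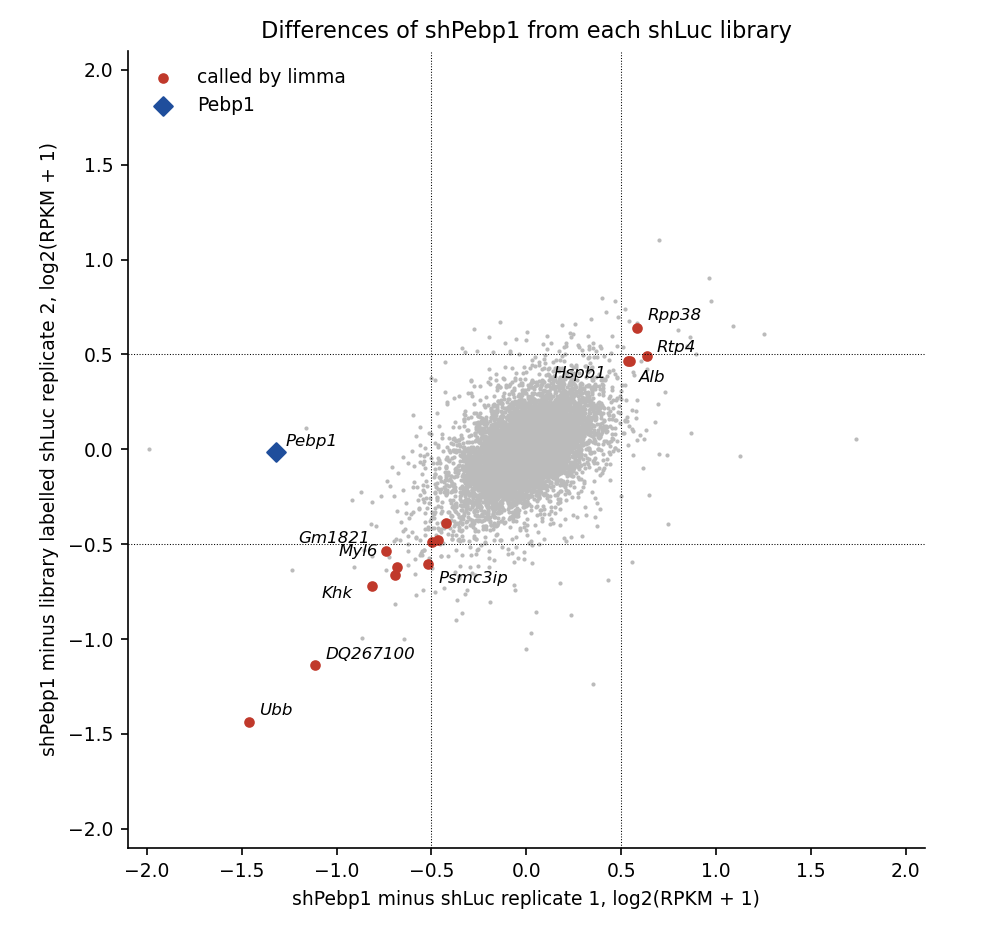
Difference of shPebp1 from shLuc replicate 1 (horizontal) and from the library labelled shLuc replicate 2 (vertical) in log2(RPKM + 1), 1 point per gene. Red points are the 14 genes called by limma, the blue diamond is Pebp1 (-1.32 and -0.02), and dotted lines mark 0.5 log2 units; Ubb lies apart from the other genes at -1.46 and -1.43.

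Ubb was the gene furthest below both controls. It encodes polyubiquitin B, a chain of head-to-tail ubiquitin units that is cut into single ubiquitin, and it supplies ubiquitin under stress. The GENCODE coding sequence (release M21, mm10, chr11:62552146-62553063, plus strand) has 4 units of 228 bases. Units 2, 3 and 4 are identical to unit 1 at 97.8%, 99.1% and 95.6% of positions. The first 60 bases of each unit are shown because this likeness bears on where reads can be placed, with capitals where a unit differs from unit 1:
Ubb unit 1: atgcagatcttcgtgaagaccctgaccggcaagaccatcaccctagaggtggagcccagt
Ubb unit 2: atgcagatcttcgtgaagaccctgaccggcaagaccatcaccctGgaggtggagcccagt
Ubb unit 3: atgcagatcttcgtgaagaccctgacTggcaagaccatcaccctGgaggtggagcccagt
Ubb unit 4: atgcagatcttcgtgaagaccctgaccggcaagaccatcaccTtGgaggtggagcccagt

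Ubb stood at 70.1 RPKM in shLuc replicate 1 and 68.8 in the library labelled shLuc replicate 2, and at 24.8 in shPebp1. The other libraries held 57.3 RPKM in shEtnk1/2, 55.7 in shPcyt2 and 72.9 in the Etn-deprived library. shPebp1 was thus the lowest of the 6 by a wide margin, with 538 reads where the other libraries had 1256 to 1646. Its level was 35.4% of shLuc replicate 1 (counting interval 32.1 to 39.0%) and 36.1% of the library labelled shLuc replicate 2 (32.7 to 39.8%). The fitted difference was -1.45 (SE 0.08), which limma called. That SE rests mostly on the spread over genes of like level, and the shLuc libraries differed by -0.03 for Ubb. Without shLuc replicate 1 the fitted difference was -1.43, and without the library labelled replicate 2 it was -1.46.

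How the reads of Ubb were counted limits this value. The deposited table places the Ubb row at chr11:62551504-62551595, 92 bases that end with the first exon, while the RPKM values imply a length of 1165 bases. The row Gm1821, a ubiquitin pseudogene that GENCODE places on another chromosome, is given at chr11:62551504-62552421, and 76.8% of the windows of 100 bases of its GENCODE transcript also occur in other genes, Ubb first among them. Of the windows of Ubb itself 52.4% are shared, with Gm1821 and Gm8797. Gm1821 stood at 37.3 and 32.2 RPKM in the controls and 21.9 in shPebp1, and at 24.0 to 25.3 in the other libraries. It was called lower too (-0.74 and -0.54; fitted -0.64, SE 0.10, limma adjusted p = 0.0041), but by less than Ubb, and its level cannot be told apart from that of Ubb with certainty.

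Rps27a, which fuses 1 ubiquitin to a ribosomal protein, was not called. It stood at 528.0, 513.1 and 535.6 RPKM (0.02 and 0.06), far above Ubb per length. Of 13 genes of ubiquitin, ubiquitin-like proteins and their activating enzymes, 1 was called, with 6 above both controls and 5 below both. Over all genes tested 36.8% lay above both controls and 31.6% below both by any amount, and the median difference was 0.01 from each. Of 31 proteasome subunits 18 lay above both controls and 7 below both, and the median difference was 0.03 from each control.

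Myl6, the essential light chain of nonmuscle and smooth muscle myosin, was the second gene to hold its call in most settings. It lies on chr10:128490861-128493825 (minus strand) and stood at 736.5 RPKM in shLuc replicate 1, 705.9 in the library labelled shLuc replicate 2 and 459.3 in shPebp1. It stood at 645.2 RPKM in shEtnk1/2, 810.9 in shPcyt2 and 317.1 in the Etn-deprived library. shPebp1 lay below both controls, and the Etn-deprived library was lower still. Against the controls the level was 62.4% (counting interval 60.3 to 64.5%) and 65.1% (62.9 to 67.4%), and the fitted difference was -0.65 (SE 0.06, limma adjusted p = 5.78e-07). The call was lost without either shLuc library (differences of -0.62 and -0.68, adjusted p = 1.00 for both). Pseudogenes share 7.9% of the windows of 100 bases of its longest coding GENCODE transcript, which has 1668 bases. The RPKM values imply a length of 614 bases, short beside the median of 2931 over the genes tested. The shared part of the sequence that was counted is thus not known and may be larger.

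No other actin or myosin gene was called. Of 27 tested, 15 lay below both controls and 4 above both, against 31.6% and 36.8% of all genes tested. The median difference of the 27 was -0.03 from shLuc replicate 1 and -0.08 from the library labelled replicate 2. Tpm2, a tropomyosin, stood at 21.4 and 22.4 RPKM in the controls and 17.7 in shPebp1 (-0.26 and -0.33), the lowest of the 6 libraries. Tagln, an actin-binding protein of smooth muscle, stood at 68.8, 92.7 and 59.8 RPKM (-0.20 and -0.62), and the controls differed by 0.42. limma-voom on the recovered reads, which also called Pebp1 although the controls differ in it, called Tagln, but the limma test above did not. Acta2 and Cnn1, also contractile genes, differed between the controls by 0.39 and 0.91. In both genes shPebp1 lay near shLuc replicate 1 (-0.03 and 0.05) and below the library labelled replicate 2 (-0.43 and -0.86). Actb and Actg1, the cytoplasmic actins, differed by at most 0.07 from either control.

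Among the other genes called lower, Khk was one of those furthest down. Khk, ketohexokinase, which takes the first step of fructose breakdown, stood at 8.97 and 8.33 RPKM in the controls and 4.66 in shPebp1 (-0.82 and -0.72). It was lower in shPebp1 than in any other library, and the pathway libraries ran from 6.16 to 6.62 RPKM. Psmc3ip, a partner of the meiotic recombinases, stood at 12.0, 12.9 and 8.12 RPKM (-0.52 and -0.60), and 24% of its windows of 100 bases are shared with its overlapping neighbour Mlx. Tnfrsf12a, the receptor of the cytokine TWEAK, stood at 25.2, 25.4 and 17.98 RPKM (-0.46 and -0.48). The 2 last-named genes were again lowest in shPebp1. 1110038B12Rik stood at 66.1, 64.5 and 49.0 RPKM (-0.43 and -0.39) and Gm5148, which shares 27.6% of its windows with Rps23 and its copies, at 24.5, 24.4 and 17.1 (-0.50 and -0.49). These differ from the genes before in that the Etn-deprived library was lower still, at 44.6 and 8.98 RPKM. DQ267100 is a row of 71 bases with 4, 4 and 1 reads, and no fold change is given for it.

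The 4 genes called higher were Rpp38, Rtp4, Alb and Hspb1. Hspb1, a small heat shock chaperone of the actin cytoskeleton, stood at 20.2 RPKM in shLuc replicate 1, 21.2 in the library labelled shLuc replicate 2 and 29.7 in shPebp1, against 18.4 to 20.1 in the other libraries. Rpp38, a protein subunit of ribonuclease P, stood at 6.47, 6.19 and 10.2 RPKM, against 5.50 to 8.44. Alb, serum albumin, stood at 11.7, 12.4 and 17.5 RPKM, against 11.4 to 14.5. All 3 were highest in shPebp1. The fitted differences were 0.50 for Hspb1 (SE 0.09), 0.61 for Rpp38 (SE 0.12) and 0.51 for Alb (SE 0.10), with limma adjusted p between 0.0249 and 0.0438. For Hspb1, 42.7% of the windows of 100 bases are shared, mostly with the pseudogene Hsp25-ps1. No other of 15 heat shock genes was called, with Hspa8, the constitutive chaperone, at 1238, 1243 and 1320 RPKM (0.09 and 0.09) and Dnajb1, a heat-inducible cochaperone, at 25.7, 26.5 and 24.0 (-0.09 and -0.14).

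**Figure D4:**
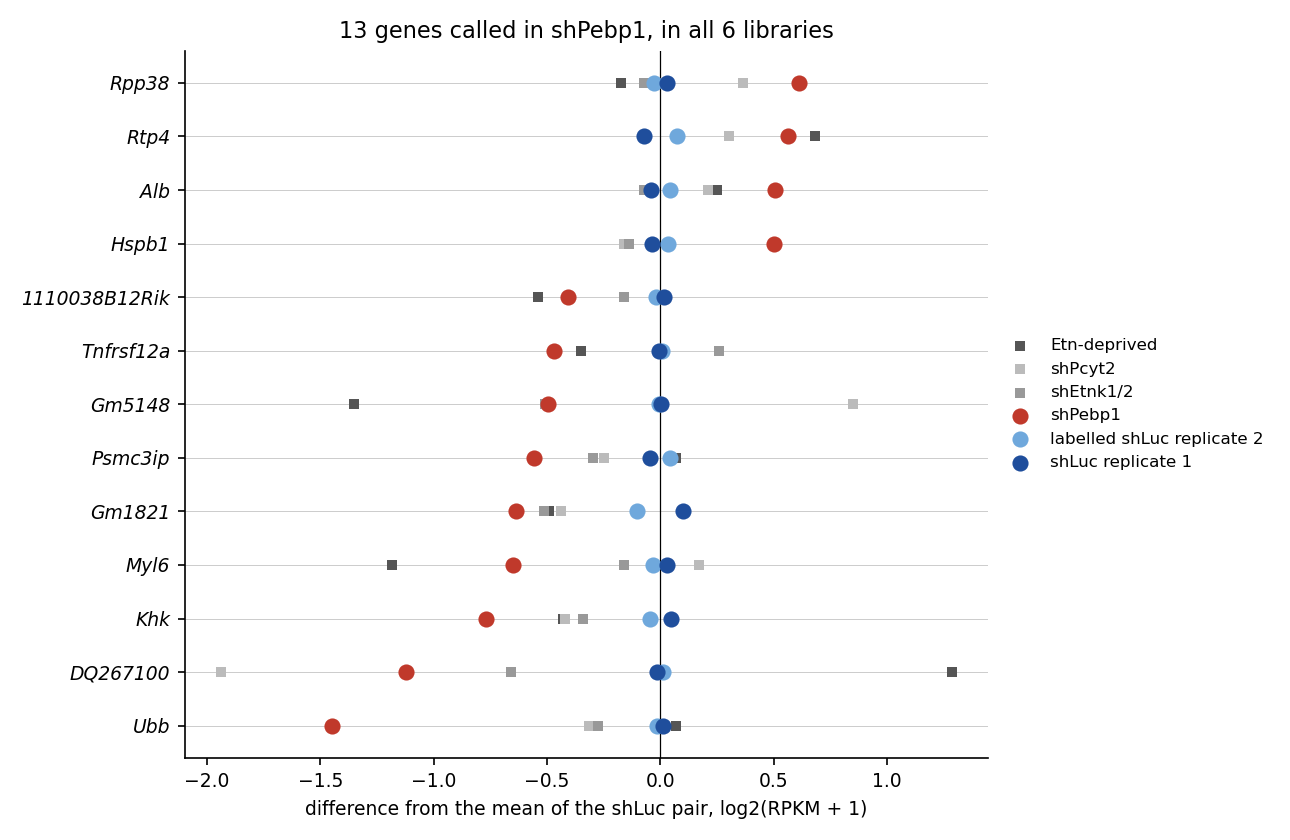
13 of the 14 genes called by limma in shPebp1, each library as its difference from the mean of the shLuc pair in log2(RPKM + 1). Circles are the shLuc libraries (blue) and shPebp1 (red) and squares are the pathway libraries (grey). Ubb has the lowest shPebp1 value, near -1.45, well below all its other libraries, and for Myl6 the Etn-deprived library lies below shPebp1.

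Genes past 0.5 log2 units from both controls were mostly low in expression. Their median of mean reads was 52 for those above and 67.5 for those below, against 713 over all genes tested. Of the 14 above, 13 were under 5 RPKM in shLuc replicate 1 and 7 had a mean under 50 reads. Of the 30 below, 22 and 11 did. The shares under these limits over all genes were not counted. Cxcl10, a chemokine induced by interferon, stood at 0.32 and 0.37 RPKM in the controls and 1.56 in shPebp1 (0.96 and 0.90), which rests on 7, 8 and 32 reads. It was the 1 gene of the 14 that passed the filter only through shPebp1, since the other 5 libraries averaged 0.955 RPKM, so its place among them is no finding. It was not extreme in shPebp1, since shEtnk1/2 held 2.02 RPKM and the Etn-deprived library 1.17. Sst, the hormone somatostatin, stood at 1.66, 2.04 and 4.21 RPKM (0.97 and 0.78). Calb2, the calcium buffer calretinin, stood at 0.87, 1.92 and 3.45 RPKM (1.25 and 0.61). Sst and Calb2 were highest in shPebp1, and limma called neither them nor Cxcl10 (adjusted p = 0.0589 to 0.272). Beside them, the 6 tested neural and glial markers summed, with those below the filter, to 73.1, 78.6 and 86.1 RPKM and to 58.6 to 74.9 in the other libraries. Of these 6, 4 lay above both controls, and the median difference was 0.17 and 0.14. Stmn2 made up most of the sum (44.4, 47.7 and 53.8 RPKM). Of the markers below the filter, Gfap lay below both controls (33, 16 and 12 reads). Dcx (16, 24 and 17 reads) and Sox10 (4, 17 and 8) lay between them, and Elavl3 (1, 4 and 4) just above both. Over all genes tested 36.8% lay above both controls. The part of these markers in the result was not tested. In bulk RNA a change in the number of cells of a type and in RNA per cell cannot be told apart.

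Below both controls lay C1qc, a complement subunit made by macrophages, at 1.84, 0.87 and 0.20 RPKM (-1.24 and -0.63), or 39, 18 and 4 reads. Car15, a carbonic anhydrase, stood at 1.97, 2.25 and 0.63 RPKM (-0.87 and -0.996). Upk3b, a uroplakin, stood at 2.90, 2.20 and 1.08 RPKM (-0.91 and -0.62). Each was lowest in shPebp1, and none was called by limma. The macrophage markers summed to 52.6, 57.1 and 49.8 RPKM, and to 53.5 to 67.9 in the other libraries. Of 5 tested, 4 lay below both controls and none above, against 31.6% and 36.8% of all genes tested. Lyz2 made up most of the sum (40.2, 42.6 and 38.4 RPKM). The markers below the filter did not move one way. Itgam lay above both controls (56, 45 and 59 reads) and C1qb below both (6, 11 and 4). Csf1r (87, 46 and 49 reads) and Ptprc, the pan-leukocyte marker (22, 8 and 12), lay between them. Their part in the result was not tested.

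Genes of the Raf-MEK-ERK cascade, the pathway that PEBP1 protein is known to restrain, kept to within 0.23 log2 units of both controls. Map2k1, a MEK kinase, stood at 28.5 RPKM in shLuc replicate 1, 28.6 in the library labelled shLuc replicate 2 and 27.7 in shPebp1 (-0.04 and -0.04). Mapk3, an ERK kinase, stood at 73.9, 71.1 and 73.7 RPKM (-0.004 and 0.05). shPebp1 lay just below both controls for Map2k1 and between them for Mapk3. Of 19 genes tested none was called, 9 lay above both controls and 3 below both, and the median difference was 0.02 and 0.05. Over all genes tested 36.8% lay above both controls and 31.6% below both. These are transcript levels, and phosphorylation was not measured. Here and in the lists that follow, a gene that moved with Pebp1 would be missed by calls and by such counts. Pebp1 itself lay only -0.02 from the library labelled shLuc replicate 2 and was not called.

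Transcripts that ERK signalling is known to induce did not move one way. Of 21 tested none was called, 7 lay above both controls and 11 below both, and the median difference was -0.04 and -0.03. The shares over all genes tested were 36.8% above both controls and 31.6% below both. Dusp6, a phosphatase that turns off ERK, stood at 10.4, 9.36 and 11.2 RPKM (0.11 and 0.24). Spry2, a feedback inhibitor of receptor signalling, stood at 13.2, 13.5 and 11.7 RPKM (-0.17 and -0.19). Etv4 and Etv5, ETS factors downstream of ERK, were at -0.12 and -0.20 and at -0.09 and -0.03. Ier3, an immediate early gene, stood at 14.4, 14.5 and 11.4 RPKM (-0.32 and -0.32) and was lowest in shPebp1, with an adjusted p of 0.373 from limma. Epha2, an ephrin receptor, stood at 3.92, 4.201 and 3.09 RPKM (-0.27 and -0.35).

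The NF-kB system was likewise without a call. Of 18 components, 7 lay above both controls and 4 below both, with medians of 0.03 and 0.05. The shares over all genes tested were 36.8% above both and 31.6% below both. Nfkb1 and Rela, subunits of the factor, were at 0.02 and 0.05 and at -0.04 and 0.05. Tnfaip3, a deubiquitinase that limits the pathway and is itself a target, stood at 2.61, 2.69 and 2.03 RPKM (-0.25 and -0.28). Of 12 target genes tested, 6 lay above both controls and 4 below both. Cxcl5, a neutrophil chemokine, was the target furthest from the controls, at 1.35, 1.84 and 3.28 RPKM (0.86 and 0.59, limma adjusted p = 0.151), and highest in shPebp1. Ccl2, another chemokine, stood at 16.6, 16.4 and 18.6 RPKM (0.16 and 0.17). Il6 stood below the filter with 12, 6 and 10 reads.

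Genes of the mesenchymal and epithelial states showed small differences. Snai1, a repressor of epithelial genes, stood at 7.91 RPKM in shLuc replicate 1, 10.6 in the library labelled shLuc replicate 2 and 7.15 in shPebp1 (-0.13 and -0.51). It was lowest in shPebp1, but the controls differed by 0.39. Zeb2, a repressor of the same kind, stood at 14.8, 15.4 and 18.6 RPKM (0.31 and 0.26), the highest of the 6 libraries, and Zeb1 at 15.7, 14.4 and 13.5 (-0.20 and -0.08), the lowest. Snai2 differed by 0.02 or less. Of 9 such factors, 5 lay above both controls and 2 below both, against 36.8% and 31.6% of all genes tested.

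Of 30 mesenchymal genes 16 lay below both controls and 5 above both, with medians of -0.07 and -0.04. Among all genes tested 31.6% lay below both and 36.8% above both. Col1a1, the main chain of type I collagen, stood at 2322 and 2523 RPKM in the controls and 2002 in shPebp1 (-0.21 and -0.33). Col1a2, its partner chain, stood at 2684, 2672 and 2399 RPKM (-0.16 and -0.16). Both were lowest in shPebp1 of the 6 libraries. Col1a1 missed the limma threshold (fitted -0.27, SE 0.06). limma-voom on the recovered reads, which also called Pebp1 although the controls differ in it, called Col1a1. Postn, the matrix protein periostin, stood at 169.7, 200.6 and 152.9 RPKM (-0.15 and -0.39). Of 19 target genes of TGF-beta, 10 lay below both controls and 5 above both, with medians of -0.07 and -0.13.

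Of 26 epithelial genes listed, 12 passed the filter, and of these 4 lay above both controls and 5 below both. The shares over all genes tested were 36.8% above both and 31.6% below both. Cdh1, E-cadherin, stood at 10.88, 9.35 and 10.98 RPKM (0.01 and 0.21), and Epcam, an epithelial adhesion molecule, at 1.11, 1.92 and 1.43 (0.21 and -0.26). shPebp1 lay above both controls for Cdh1, by 0.01 from the nearer, and between them for Epcam. Cdh3, P-cadherin, stood at 3.28, 4.18 and 2.67 RPKM (-0.22 and -0.50) and was lowest in shPebp1. The reprogramming factors all lay below both controls without a call. Sox2 stood at 310.7, 302.8 and 270.2 RPKM (-0.20 and -0.16), Klf4 at 394.2, 362.5 and 326.6 (-0.27 and -0.15) and Myc at 8.62, 7.99 and 6.74 (-0.31 and -0.22). Sox2 and Klf4 were lower still in shEtnk1/2 (208.5 and 262.0 RPKM) and in the Etn-deprived library (200.3 and 238.0). Whether these rows count transcripts of the cell's own genes or of introduced factors is not given in the sources used here.

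**Figure D5:**
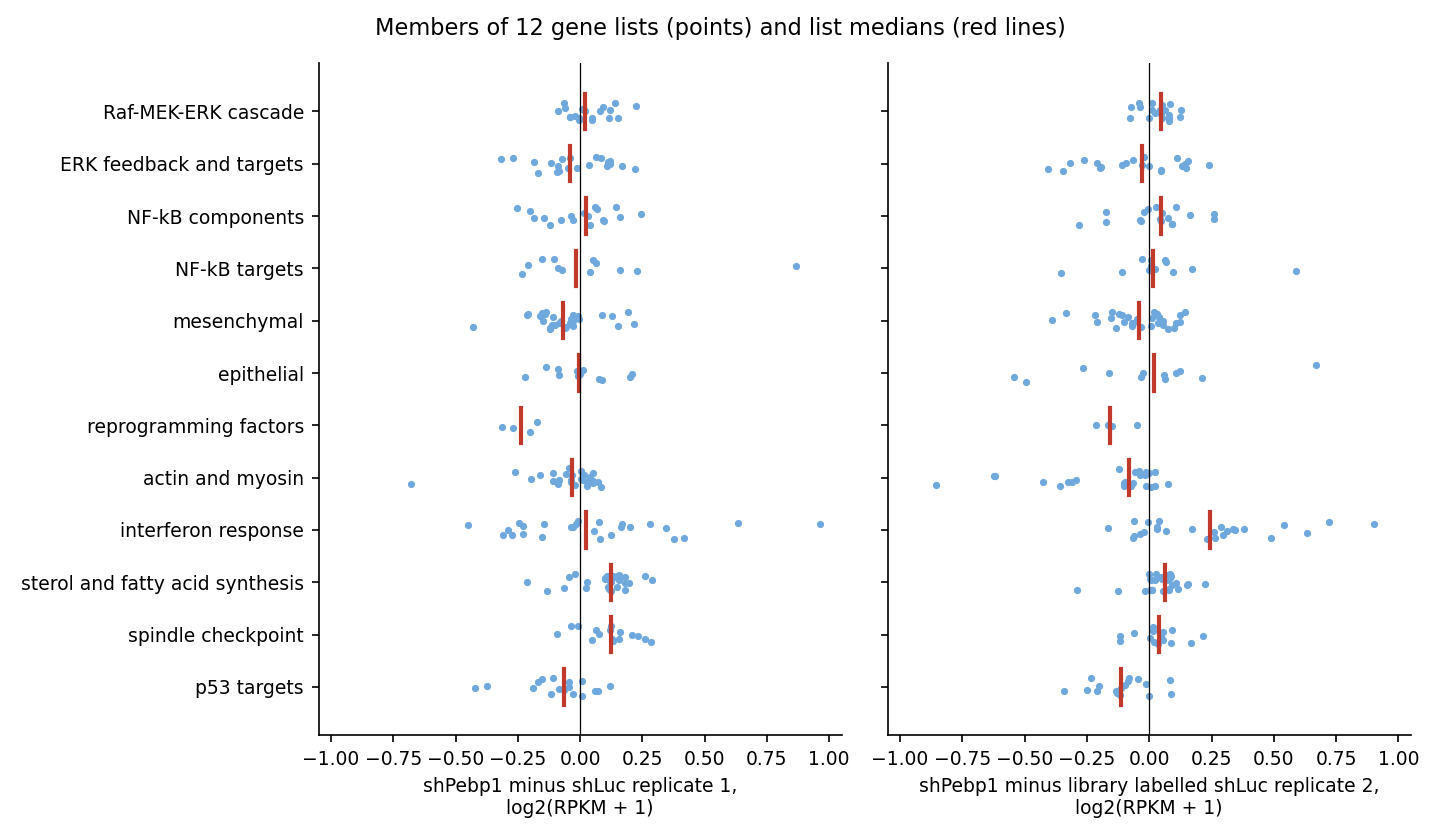
Members of 12 gene lists as the difference of shPebp1 from shLuc replicate 1 (left) and from the library labelled shLuc replicate 2 (right) in log2(RPKM + 1). Points are genes and red lines are medians, which lie between -0.24 and 0.12 on the left and between -0.16 and 0.24 on the right. Myl6 lies at -0.68 and -0.62 among the actin and myosin genes.

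Of the interferon-induced genes Rtp4 was called. Rtp4, which encodes an interferon-induced chaperone of receptors, stood at 7.57 and 8.47 RPKM in the controls and 12.3 in shPebp1 (fitted 0.56, SE 0.11, limma adjusted p = 0.0383). shEtnk1/2 held the same level (12.3 RPKM) and the Etn-deprived library a higher one (13.5), so the control level was low among the 6 libraries. Gbp2, a guanylate-binding protein, stood at 1.43, 0.97 and 2.25 RPKM (0.42 and 0.72), and Irf7, a factor that amplifies the response, at 2.75, 2.73 and 3.55 (0.28 and 0.29). Isg15, a ubiquitin-like protein, stood at 9.05, 4.37 and 7.32 RPKM, below one control and above the other. Of 26 tested, 13 lay above both controls and 7 below both, against 36.8% and 31.6% of all genes tested. The medians of the list were 0.02 from shLuc replicate 1 and 0.24 from the library labelled replicate 2. From shLuc replicate 1 to the library labelled replicate 2 the median difference was -0.14.

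The promoters of Cxcl10 and Gbp2, genes of this list that lay above both controls, are shown because they hold the letters marked below. Cxcl10 passed the filter only through shPebp1. The sequences are as RefSeq gives them (GRCm38.p6, from 250 bases before to 50 after the start). Capitals mark the letters GAAA, any 2 bases and GAAA again, or their reverse complement, a core of the element bound by interferon-regulated factors. The first is chr5:92348840-92349139 (minus strand) and the second chr3:142620413-142620712 (plus strand):
Cxcl10 promoter: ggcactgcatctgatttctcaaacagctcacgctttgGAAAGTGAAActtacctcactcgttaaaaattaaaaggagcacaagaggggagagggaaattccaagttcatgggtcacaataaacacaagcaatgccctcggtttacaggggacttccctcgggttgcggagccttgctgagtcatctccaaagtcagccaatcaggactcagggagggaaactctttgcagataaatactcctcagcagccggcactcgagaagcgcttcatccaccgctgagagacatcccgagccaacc
Gbp2 promoter: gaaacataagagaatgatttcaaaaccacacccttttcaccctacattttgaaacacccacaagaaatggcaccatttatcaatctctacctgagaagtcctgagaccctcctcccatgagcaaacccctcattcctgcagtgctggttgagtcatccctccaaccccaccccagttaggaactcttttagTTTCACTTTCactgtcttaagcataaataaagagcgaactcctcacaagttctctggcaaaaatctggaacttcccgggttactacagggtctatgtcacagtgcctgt
These letters, searched on both strands, occur in 1131 of 32851 promoters (3.44%) and in those of 11 of the 21 tested interferon genes that matched the table by symbol. The promoter of Irf7, also above both controls, held no match, while that of Isg15, which lay between the controls, held 3. Rtp4 was not matched by symbol. A match is a description of the window and not a measured site.

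Lipid genes were close to the controls, with more of the sterol genes above than below. Of 28 genes of sterol and fatty acid synthesis 21 lay above both controls and 2 below both, with medians of 0.12 and 0.06, and none was called. Dhcr7, which makes cholesterol from its last precursor, stood at 40.6, 41.7 and 48.9 RPKM (0.26 and 0.22), and was highest in shPebp1. The shares over all genes tested were 36.8% above both controls and 31.6% below both. For the list as a whole, the library labelled shLuc replicate 2 lay above replicate 1 by a median of 0.06.

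The CDP-ethanolamine pathway, whose product PEBP1 binds, had no call among 5 tested genes. Pcyt2, its rate-limiting enzyme, stood at 42.03, 40.05 and 38.3 RPKM (-0.13 and -0.06), and Etnk1, ethanolamine kinase, at 21.02, 21.4 and 22.02 (0.06 and 0.04). Among 16 other phospholipid genes 9 lay above both controls and 2 below both, against 36.8% and 31.6% of all genes tested. Pemt, which methylates phosphatidylethanolamine to phosphatidylcholine, stood at 2.21, 2.47 and 1.35 RPKM (-0.45 and -0.56), the lowest of the 6 libraries. Chpt1, which makes phosphatidylcholine from diacylglycerol, stood at 5.80, 6.05 and 7.87 RPKM (0.38 and 0.33), against 8.18 in the Etn-deprived library. limma called neither (adjusted p = 0.465 and 0.451).

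Processes that use phosphatidylethanolamine or that PEBP1 has been linked to were also without a call. Of 21 genes of LC3 lipidation and autophagy, in which LC3 is joined to phosphatidylethanolamine, 9 lay above both controls and 9 below both. The shares over all genes tested were 36.8% above both and 31.6% below both. Atg5, part of the ligase, stood at 17.4, 18.8 and 21.6 RPKM (0.30 and 0.19). Of 9 genes of lipid peroxidation and ferroptosis, 4 lay above both controls and 2 below both, and Alox15, a lipoxygenase that PEBP1 protein binds, had 0, 1 and 0 reads. Among other partners, Tbk1, a kinase of antiviral signalling, was at 0.03 and 0.08 and Stat3 at -0.07 and 0.17.

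The spindle checkpoint, another process in which PEBP1 has a described part through Aurora B, showed small differences. Of 16 genes 12 lay above both controls and 2 below both, with medians of 0.12 and 0.04. For this list and those that follow, the shares over all genes tested were 36.8% above both and 31.6% below both. Ttk, a checkpoint kinase, stood at 9.67, 9.62 and 11.3 RPKM (0.21 and 0.22), and Cdca8, a subunit of the Aurora B complex, at 30.8, 32.9 and 37.1 (0.26 and 0.17). Aurkb itself stood at 26.1, 27.6 and 25.4 RPKM (-0.04 and -0.12) and so lay on the other side of the controls. Of 27 genes of the cell cycle and replication 17 lay above both controls and 9 below both. Mcm3, a subunit of the replicative helicase, stood at 39.6, 37.6 and 45.6 RPKM (0.20 and 0.27). Of 17 p53 and senescence genes none lay above both controls and 10 lay below both, with medians of -0.07 and -0.11. Gdf15, a stress cytokine, stood at 8.83, 8.02 and 6.59 RPKM (-0.37 and -0.25), and Cdkn1a, the inhibitor p21, at 240.2, 254.5 and 232.7 (-0.05 and -0.13).

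The remaining lists held no call. Chac1, which breaks down glutathione and is a target of the integrated stress response, stood at 1.52, 1.46 and 0.58 RPKM (-0.67 and -0.64) on a mean of 37.7 reads, while Atf4 and Ddit3, factors of that response, differed by 0.12 or less. Of 19 genes of that response and of endoplasmic reticulum stress, 4 lay above both controls and 9 below both. Of 38 ribosomal protein genes 6 lay above both controls and 16 below both, with medians of -0.04 and 0.01. Of 27 genes of oxidative phosphorylation 12 lay above both controls and 8 below both. Ndufa2, a subunit of complex I, stood at 49.3, 45.9 and 39.0 RPKM (-0.33 and -0.23), and at 23.1 in the Etn-deprived library. Of 17 glycolysis genes 3 lay above both controls and 4 below both, and Aldoc, an aldolase, stood at 7.63, 7.76 and 10.7 RPKM (0.43 and 0.41), the highest of the 6 libraries (limma adjusted p = 0.229). Of 15 targets and members of the Keap1-Nrf2 system 5 lay above both controls and 2 below both, and of 5 early pluripotency genes 2 and 1 did.

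Markers of other cell types that fibroblast cultures could hold were low. Endothelial markers summed to 26.7 RPKM in shLuc replicate 1, 23.0 in the library labelled shLuc replicate 2 and 23.6 in shPebp1, with Pecam1, an endothelial adhesion molecule, at 0, 6 and 3 reads. Skeletal muscle markers summed to 6.55, 9.44 and 7.13 RPKM, keratinocyte markers to 4.37, 3.02 and 2.86, and adipocyte markers to 6.65, 8.48 and 6.34. The defining genes Myog of muscle, Krt5 of keratinocytes and Adipoq of adipocytes had 1, 0 and 0 reads in shPebp1. None of these sums lay outside the controls by more than the controls differed.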

How the data were processed

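The table gave 1 RPKM value per gene and library for 18303 rows, as the authors deposited it. Per the submitters' processing notes, the tools were Bowtie 0.12.2 with build mm10. Per the labels' protocols, libraries were made from poly(A)-enriched RNA and read from both ends. The sources used here do not name the counting program, gene models or strand setting.

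For all 18303 rows the 6 values stood in ratios of whole numbers (within 1e-05 reads plus a relative 5e-09), which gave the reads and the inferred lengths; the smallest such numbers were taken. Names turned into dates stood on 26 rows, and 2 symbols stood on more than 1 row. Intervals are 95% Poisson intervals or exact conditional intervals of a ratio, and cover counting error only.

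Values were tested as log2(RPKM + 1) by limma 3.58.1 in R 4.3.3, using trended, robust empirical Bayes variances and 5 group means (1 residual degree of freedom, median prior 24.96). Two-sided p-values were corrected over the 11815 genes (Benjamini-Hochberg); 793 had an unadjusted p under 0.05. Rows named Mir, Snor, Snord, Scarna or Rnu were left out. The scripts were tested on simulated data. Windows of 100 bases were compared over all GENCODE M21 transcripts. They were taken from the longest coding transcript of each gene, or from its longest transcript where none was coding. Its length can differ from the inferred length. Alternatives were pseudocounts of 0.1 and 0.5, other filters, other scaling, limma-voom on recovered reads, another spread, removal of a length trend and leaving out each shLuc library. A filter of 50 reads for the test was added after the data had been seen.

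Named genes were Pebp1, all called genes, the 12 furthest beyond both controls in each direction, up to 4 members of each list, a fixed panel, the 10 profiles nearest to Pebp1 and the 6 furthest from each control. Rtp4, Dhrs3 and Islr mark the edge of the size rule, and some list members (Rps27a, Acta2, Cnn1, Actb, Actg1, Isg15, Stat3, Aurkb, Atf4, Ddit3, Il6, Ccl2 and the like) were chosen after their values were seen. Some genes that the rule names are not reported here. The members and lists were chosen with earlier results of these data known.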

Additional observations from a re-analysis of the deposited data

How the results depend on the processing

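The number of genes called by limma was 14, and it was 18 and 15 with pseudocounts of 0.1 and 0.5, 12 with short RNA rows kept and 13 with limma-voom. It was 0 without a filter on low values (1636 at an unadjusted p under 0.05), 5 with a mean of at least 5 RPKM, 2 after scaling to a common median ratio, 2 after quantile normalization, 2 after removal of the length trend, 1 with the spread pooled with the pathway libraries, 1 without a trend in the empirical Bayes step and 22 with a mean of at least 50 reads. Without either shLuc library it was 0 in both cases (157 and 224 at an unadjusted p under 0.05). Shared with the 14 were 3 of the 13 calls of limma-voom (Gm1821, Myl6 and Ubb) and 13 of the 22 with at least 50 reads. The count past 0.5 log2 units from both controls was 44, and it was 142 and 84 with the smaller pseudocounts, 91 without a filter, 8 with at least 5 RPKM, 92 with short RNA rows, 26 with at least 50 reads, 2 at 1 log2 unit and 144 to 168 when 1 shLuc library was left out. Pebp1 was called under limma-voom alone (-0.68, adjusted p = 3.14e-11, range over all alternatives 3.14e-11 to 1.00). The cause was not tested. Over 206 single genes and their alternatives, 2610 of 2777 values kept direction and side of the threshold, 134 lost a call, 14 gained one, 18 changed direction and 1 (AF357426, without shLuc replicate 1) came to exactly 0, these last without a call. They were 0.00193 for Epcam (quantile normalization), -0.00543 for Rela (scaled to a common median ratio), -0.00171 for Rela (length trend removed), -5.08e-05 for Snai2 (quantile normalization) and, without 1 shLuc library, 1700029I15Rik (-0.0348 to 1.12), AF357426 (-1.99 to 0), Bmper (-0.327 to 0.187), C130083M11Rik (-0.481 to 0.0343), Cmpk1 (-0.464 to 0.0141), Epcam (-0.265 to 0.208), Fabp4 (-1.24 to 0.351), Map2k2 (-0.0594 to 0.0493), Mapk3 (-0.00444 to 0.0513), Nfkbia (-0.20 to 0.0277), Pstpip1 (-0.355 to 0.118), Rela (-0.0378 to 0.0479), Skp1a (-0.581 to 0.0704), Snhg10 (-1.16 to 0.114) and Spry4 (-0.0944 to 0.035). Of 339 list medians 54 moved by more than a limit set for each list, and the largest move was 0.30. The limit was the size of the list's median difference between the controls, divided by the square root of 2. It is not the spread over genes and was very small for some lists (a median difference of -0.00055 for the Raf-MEK-ERK cascade). No paired analysis was possible because shPebp1 is 1 library without a replicate number. Every comparison is limited by the single shPebp1 library and by a control as low in Pebp1, and genes with few reads also by depth.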

Other observations

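Khk and Cgref1, a secreted calcium-binding protein, are neighbours on chromosome 5, 1896 bases apart and on opposite strands, and both lay past 0.5 log2 units below both controls. Cgref1 stood at 7.68 RPKM in shLuc replicate 1, 7.18 in the library labelled shLuc replicate 2 and 4.64 in shPebp1 (-0.62 and -0.54). Krtcap3, a membrane protein, lies on the same stretch and stood at 3.07, 2.25 and 1.25 RPKM (-0.86 and -0.53), on a mean of 42.5 reads. From Khk to Krtcap3, a stretch of 331303 bases chosen after the values had been seen, 14 genes were tested, of which 3 were past the size and 5 in all lay below both controls and 4 above both. The median difference of the 14 was -0.04 from shLuc replicate 1 and 0.03 from the library labelled shLuc replicate 2. Preb, the next tested gene after Cgref1, stood at 15.7, 15.1 and 15.3 RPKM.

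Many genes differed between the controls by more than shPebp1 differed from one of them. For 31.6% of all genes tested shPebp1 lay between the controls. Fabp4, a fatty acid-binding protein of adipocytes, stood at 0.31 RPKM in shLuc replicate 1, 2.93 in the library labelled shLuc replicate 2 and 0.67 in shPebp1. Kcnj15, a potassium channel, stood at 0.70, 2.52 and 0.70 RPKM. In both genes shPebp1 lay near shLuc replicate 1, whereas for Pebp1 it lay near the library labelled shLuc replicate 2.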
